A study of Mus musculus with 20 samples.

Results

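The genes described here encode Golgi glycosyltransferases and carbohydrate sulfotransferases, the enzymes that build and cap sugar chains on proteins and lipids passing through the secretory pathway. They were taken by name from 2 deposited gene tables, as every row whose symbol begins with Galnt, Gcnt, B3gnt, B3galt, B4galt, St3gal, St6gal, Fut, Chst or Mgat followed directly by a digit. This gave 50 of the 11779 rows of the table for GFP-low cells and 45 of the 11746 rows of the table for GFP-high cells, 52 genes in all, of which 43 were in both tables. Galntl6, B3gntl1, St6galnac1, St6galnac2 and St6galnac4 have similar names but no digit at that place and are not counted among them.

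RNA-seq was done on small-intestinal crypt epithelium of 8-week C57BL/6J mice. The Lgr5-GFP reporter, present in every mouse, labels stem cells of the crypt. The mice were Itgb7-/- (knockout, KO) or Itgb7+/+ (wild type, WT). Itgb7 encodes the integrin beta 7 chain of integrins that lymphocytes use to home to the gut. Viable EpCAM+ cells without CD45, CD31 or TER119 were sorted into a GFP-low fraction, which the series calls transit-amplifying, and a GFP-high fraction, which it calls stem cells. The 4 groups were GFP-low cells of KO mice, GFP-low cells of WT mice, GFP-high cells of KO mice and GFP-high cells of WT mice, with 5 libraries each. KO mice are numbered 2, 3, 4, 5 and 6 and WT mice 1, 3, 6, 7 and 8, and values are given in that order. The knockout is in the whole animal, and the labels give neither its allele nor the construct of the reporter.

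Mucin-type O-glycans, the dense sugar coat of intestinal mucins, begin when a polypeptide GalNAc-transferase (Galnt) attaches N-acetylgalactosamine to serine or threonine. The chain is then extended by galactose, branched by Gcnt enzymes, lengthened by B3gnt and B4galt enzymes, and capped by sialic acid (St3gal), fucose (Fut) or sulfate (Chst). Mgat enzymes instead set the number of branches on N-glycans, and other sulfotransferases and galactosyltransferases act on proteoglycans or glycolipids. Goblet cells, the mucus-secreting cells of the gut, are known for high activity of the mucin-type pathway, and the epithelial glycans are known to hold and feed gut bacteria.

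Library totals ran from 20900404 to 27838392 counts in the GFP-low cells of KO mice, 21465693 to 23182256 in those of WT mice, 20986069 to 27083283 in the GFP-high cells of KO mice and 21717749 to 26724362 in those of WT mice. Lgr5 averaged 7.00 ± 2.38 CPM (counts scaled to a common library size) in GFP-low and 105 ± 11.2 CPM in GFP-high cells of KO mice, and 12.9 ± 6.71 and 102 ± 20.0 CPM in those of WT mice (SD, n = 5 each), and the epithelial gene Epcam was at 561 to 651 CPM on average in every group. Not all epithelial markers were as even, and their calls between populations are given below. Both populations held counts of secretory markers: those of Paneth cells took 2.73 to 11.7% of counts in GFP-low and 2.09 to 4.96% in GFP-high cells of KO mice, and 5.94 to 19.3% and 1.7 to 6.63% in those of WT mice. Goblet cell markers took 2.74 to 5.09% in GFP-low cells of KO and 2.47 to 5.69% in those of WT mice. Of 12 leukocyte markers 4 to 5 were in the tables, with at most 0.00613% of counts. They were Lck, Gzma, Gzmb and Lyz2 in both and Cd3g for GFP-high cells only, and Ptprc, Cd3e and Cd8a were not among them. Lyz2 is also on the Paneth list. Gzma averaged 12.1 CPM in GFP-high cells of KO and 6.09 CPM in those of WT mice. The median log2 fold change of KO over WT was 0.99 in GFP-high cells with 4 of 5 positive. In GFP-low cells it was 0.48 with 3 of 4 positive, and 0 were called in either. Itgb7 was in neither table, so the gene itself gives no check of the genotype labels. In bulk samples such as these, fewer cells of a type and less RNA per cell cannot be told apart. Both libraries of WT mice 7 and 8 stood apart from the rest of their groups on the second principal component, and both libraries of KO mouse 2 stood apart from theirs in the other direction. Counts of calls are given without these mice.

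The 52 genes comprise 10 polypeptide GalNAc-transferases, 3 Gcnt branching enzymes, 6 B3gnt, 3 B3galt and 6 B4galt enzymes, 6 sialyltransferases, 5 fucosyltransferases, 6 sulfotransferases and 7 Mgat enzymes. Of these, 18 are counted here as mucin-type enzymes: the GalNAc-transferases with Gcnt3, Gcnt4, B3gnt3, St3gal1, St3gal2, Fut1, Fut2 and Chst4. B3galt5, B3gnt5, B3gnt9, Chst12, Galnt2, Mgat4c and St6gal1 were only in the table for GFP-low cells, and Chst2 and Chst14 only in that for GFP-high cells. Every row deposited had a mean count of at least 16.8, so a gene low in 1 population can be missing from its table, and the comparison of populations covers the 43 genes in both. Gcnt1 and B3gnt6, which act in the same pathway, were not analysed here. Together the rows held 0.232 to 0.281% of all counts in GFP-low cells of KO mice and 0.21 to 0.303% in those of WT mice. In GFP-high cells they held 0.142 to 0.173% in KO and 0.152 to 0.177% in WT mice, below every GFP-low library.

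Mean levels in CPM per kilobase of exon, which allow genes to be compared, had a few dominant enzymes. In GFP-low cells Gcnt3, which makes core 2 and core 4 branches on mucins, stood highest with 146 in KO mice and 191 in WT mice. B4galt1, which adds galactose to N-acetylglucosamine ends, followed with 102 in KO and 123 in WT mice, and St3gal4, which caps galactose with sialic acid, with 86.0 in KO and 95.6 in WT mice. Galnt6, with 41.3 in KO and 38.2 in WT mice, and Galnt12, with 36.8 in KO and 35.7 in WT mice, came next. In GFP-high cells B4galt1 stood highest with 98.8 in KO and 95.2 in WT mice, above Gcnt3 with 24.8 in KO and 39.1 in WT mice. B4galt3, Galnt6 and Galnt12 lay next to each other there, between 14.7 and 16.2 in KO mice and between 13.9 and 16.4 in WT mice, and St3gal4 was at 7.32 in KO and 7.92 in WT mice. Low levels included those of St3gal2, Fut1, Fut2, B3gnt2 and B3gnt8, with 0.144 to 1.12 CPM per kilobase over the groups. Other enzymes were as low, such as Mgat4c with 0.205 in KO and 0.258 in WT mice in GFP-low cells.

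Between GFP-low and GFP-high cells, most of these enzymes were higher in the GFP-low fraction in both genotypes. In KO mice 30 of the 43 genes were higher in GFP-low cells and 5 lower, which together is 35 of 43 beside 50.5% of all genes, and 8 did not pass edgeR's quasi-likelihood test at a Benjamini-Hochberg adjusted p of 0.05, the test and threshold used throughout. Over all 11294 genes tested in KO mice, 26.2% were higher and 24.4% lower. In WT mice 25 of the 43 were higher, 4 lower and 14 did not pass, against 43.4% of all 11293 genes called, which is 22% called higher and 21.4% called lower. The median log2 fold change of the 43 genes was 0.81 in KO and 0.63 in WT mice, beside -0.01 over all genes in each genotype, and the values ran from -1.76 to 3.91 in KO and from -1.60 to 3.59 in WT mice. Of the 17 mucin-type enzymes tested, 15 were higher and 1 lower in KO mice with a median of 1.38, and 14 were higher and 0 lower in WT mice with a median of 1.12. The other 26 had 15 higher and 4 lower in KO mice with a median of 0.48, and 11 higher and 4 lower in WT mice with a median of 0.39. In all, 25 genes were higher in both genotypes, 3 were lower in both, 7 were called in neither, and 0 were called in opposite directions.

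These counts depend on how libraries are scaled. With library totals alone, the median over all genes moved to -0.27 in KO and -0.37 in WT mice. The calls were then 24 higher and 7 lower in KO and 16 higher and 8 lower in WT mice. Over all genes they were 1778 higher and 4738 lower of 11294 in KO mice. In WT mice they were 1188 higher and 4895 lower of 11293. The higher calls lost by that scaling in WT mice were B3galt4, B3gnt3, B4galt4, B4galt5, Fut8, Galnt1, Galnt4, Mgat2 and Mgat4a, and in KO mice B4galt4, B4galt5, B4galt7, Galnt1, Mgat1 and St3gal6. The sign itself turned with library totals alone for Galnt1, B4galt1, B4galt3, B4galt7, B3gnt8, Mgat1, Mgat4b and Chst15 in WT mice and for B4galt1, B4galt3, Mgat4b and Chst15 in KO mice, of which Galnt1 was called. Leaving out both libraries of KO mouse 2 gave the same 30 higher and 5 lower genes in KO mice. Over all genes that fit called 2873 higher and 2607 lower of 11294. Without WT mice 7 and 8, WT mice had 21 higher and 2 lower, beside 1715 higher and 1256 lower of all 11294 genes. The higher calls of Galnt1, Galnt4, B4galt4 and Fut1 and the lower calls of B3galt6 and Fut11 were lost. The marker lists moved with the same comparison: the 11 goblet markers were all higher in GFP-low cells, with medians of 3.67 in KO and 3.10 in WT mice, as were 12 of 12 Paneth markers with 1.59 and 2.25, 10 of 10 enterocyte markers with 3.03 and 3.64 and 10 of 10 enteroendocrine markers with 3.42 and 2.55. The 10 stem cell markers tested were all lower, with medians of -2.44 in KO and -2.36 in WT mice. Of 6 epithelial markers, 3 were higher and 0 lower in KO mice with a median of 0.42. In WT mice 4 of the 6 were higher and 0 lower with a median of 0.58. The part of cell type in the differences of the enzymes was not tested.

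**Figure D1:**
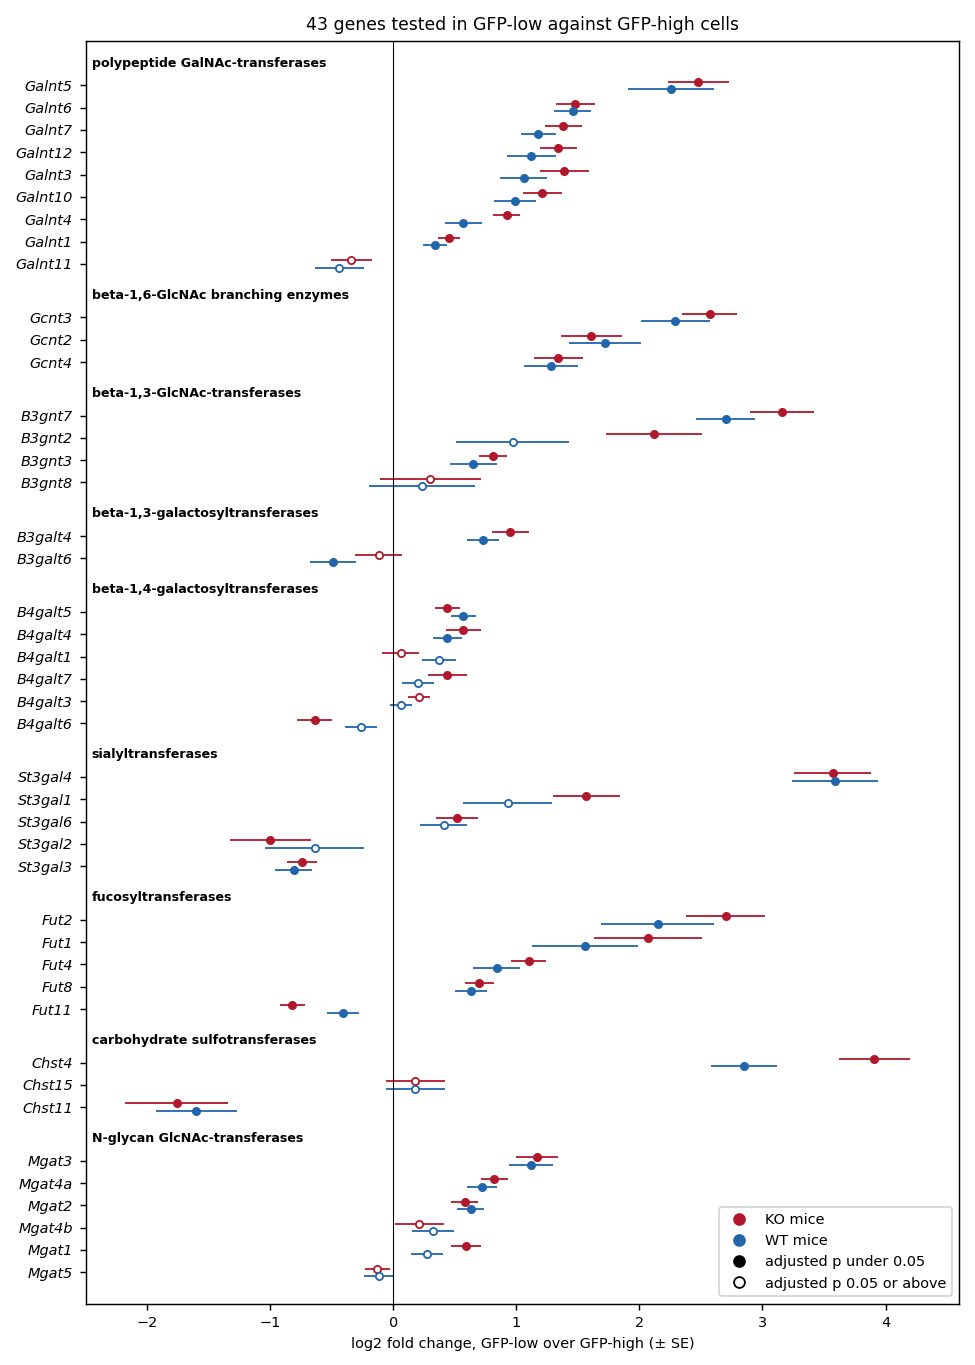
Log2 fold change of GFP-low over GFP-high cells for the 43 enzymes in both tables, with bars of 1 SE to each side, in KO and WT mice and grouped by family; filled points passed an adjusted p of 0.05 and a line marks 0. Chst4, St3gal4 and B3gnt7 lie furthest to the right, and Chst11, St3gal3 and Fut11 lie left of 0 in both genotypes.

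The GalNAc-transferases, which start mucin-type chains, were higher in GFP-low cells in 8 of 9 tested in each genotype. Over all genes 26.2% were called higher in KO and 22% in WT mice. Galnt6 had the smallest p of the family in WT mice. It stood at 122, 162, 152, 202 and 163 CPM in the GFP-low and 49.3, 52.2, 48.8, 80.9 and 58.0 CPM in the GFP-high libraries of KO mice. WT mice had 175, 122, 159, 108 and 176 CPM in GFP-low and 61.9, 56.2, 52.9, 45.8 and 52.9 CPM in GFP-high libraries. The populations did not overlap in either genotype, and the log2 fold change was 1.48 ± 0.16 in KO (adjusted p = 4.33e-06) and 1.46 ± 0.15 in WT mice (adjusted p = 1.1e-05; edgeR, SE). Galnt5 had the largest fold change of the family, 2.48 ± 0.25 in KO and 2.26 ± 0.35 in WT mice, at a low level of 13.4 ± 4.56 and 13.0 ± 3.41 CPM in GFP-low cells (SD, n = 5 each). Galnt7 and Galnt10, which prefer peptides that already carry N-acetylgalactosamine, rose by 1.38 ± 0.15 and 1.21 ± 0.16 in KO mice and by 1.18 ± 0.14 and 0.99 ± 0.17 in WT mice. The log2 fold change of Galnt12 was 1.34 ± 0.15 in KO and 1.12 ± 0.20 in WT mice, and that of Galnt3, known for protecting the hormone FGF23 from cleavage, was 1.39 ± 0.20 and 1.06 ± 0.19. Galnt4, another enzyme of partly glycosylated peptides, had 0.92 ± 0.11 in KO and 0.57 ± 0.15 in WT mice, and shares exon bases with Poc1b. The widely expressed Galnt1 had the smallest called change, 0.45 ± 0.09 in KO and 0.34 ± 0.10 in WT mice, and in WT mice it was at -0.03 with library totals alone and missed the threshold when WT mouse 8 was left out of the GFP-low libraries or WT mice 7 and 8 out of both. Galnt11, whose substrates include Notch1, did not pass in either genotype, at -0.34 ± 0.17 in KO and -0.44 ± 0.20 in WT mice.

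All 3 Gcnt branching enzymes were higher in GFP-low cells, beside 26.2% of all genes in KO and 22% in WT mice. Gcnt3, on chromosome 9 at chr9:70031496-70038088 (mm10), stood at 343, 614, 773, 668 and 739.7 CPM in the GFP-low and 96.0, 84.9, 98.1, 159 and 95.4 CPM in the GFP-high libraries of KO mice. In WT mice its values were 736, 615, 511, 755 and 1492 CPM in GFP-low and 182, 215, 143, 104 and 196 CPM in GFP-high libraries. Every GFP-low library was above every GFP-high library, and the change was 5.94-fold in KO and 4.89-fold in WT mice, or 2.57 ± 0.22 and 2.29 ± 0.28 on the log2 scale (edgeR adjusted p = 7.91e-07 and 5.55e-05). Gcnt4, also a core 2 enzyme, was higher by 1.34 ± 0.20 in KO and 1.28 ± 0.22 in WT mice. Gcnt2, which branches poly-N-acetyllactosamine chains into the I antigen, was higher by 1.61 ± 0.25 in KO and 1.72 ± 0.29 in WT mice. The level of both was low, with at most 15.4 ± 5.30 CPM (SD, n = 5), reached by Gcnt2 in GFP-low cells of WT mice.

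The B3gnt enzymes add N-acetylglucosamine to lengthen chains. Of 4 tested, 3 were higher in KO and 2 in WT mice and 0 lower, beside 50.5% and 43.4% of all genes called. B3gnt7 had the largest change. This enzyme is known for building keratan sulfate chains. It stood at 15.4, 24.0, 26.6, 32.7 and 24.1 CPM in the GFP-low and 1.28, 2.77, 2.37, 3.67 and 3.65 CPM in the GFP-high libraries of KO mice. Its WT values were 25.3, 19.5, 27.3, 21.5 and 38.8 CPM in GFP-low and 4.49, 5.24, 3.72, 2.33 and 4.59 CPM in GFP-high libraries. The populations were far apart without overlap, at 8.94-fold in KO and 6.51-fold in WT mice (log2 3.16 ± 0.26 and 2.70 ± 0.24, edgeR adjusted p = 5.29e-07 and 4.45e-06). B3gnt3, which extends core 1 chains of mucins, rose by 0.81 ± 0.11 in KO and 0.65 ± 0.19 in WT mice. B3gnt2, the main poly-N-acetyllactosamine enzyme, was called higher in KO mice at 2.12 ± 0.39 and not in WT mice at 0.97 ± 0.46 (edgeR adjusted p = 0.107). Its value is uncertain because it shares exon bases with Gm28048, and the sum of both rows was 10.4 ± 0.869 CPM in GFP-low and 7.79 ± 0.693 CPM in GFP-high cells of KO mice, and 10.4 ± 2.46 and 7.48 ± 1.25 CPM in those of WT mice (SD, n = 5 each). B3gnt8 did not pass, at 0.30 ± 0.41 in KO and 0.23 ± 0.43 in WT mice.

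Of the 8 galactosyltransferases tested, 4 were higher and 1 lower in KO mice, and 3 higher and 1 lower in WT mice. The share called over all genes was 50.5% in KO and 43.4% in WT mice. B3galt4, which makes gangliosides, was the member of its family with the smallest p. It stood at 27.0, 30.6, 27.6, 41.1 and 31.1 CPM in the GFP-low and 15.7, 18.0, 12.2, 20.8 and 15.4 CPM in the GFP-high libraries of KO mice. For WT mice the values were 36.0, 30.1, 42.0, 30.7 and 39.3 CPM in GFP-low and 24.5, 19.1, 19.3, 18.9 and 25.7 CPM in GFP-high libraries. The populations did not overlap in either genotype, with a log2 fold change of 0.95 ± 0.15 in KO and 0.73 ± 0.13 in WT mice (edgeR adjusted p = 0.000133 and 0.000903). B3galt6, which builds the linker of proteoglycans, was called lower in WT mice at -0.49 ± 0.19 with an edgeR adjusted p of 0.0481, and had -0.12 ± 0.19 in KO mice. The WT call was lost when the mouse number was fitted as a block (adjusted p = 0.0623) and in 8 of the 10 fits that left out 1 library.

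B4galt5, a lactosylceramide synthase, had the smallest p of the B4galt family in WT mice. It stood at 23.5, 22.9, 20.2, 23.4 and 22.3 CPM in the GFP-low and 18.0, 16.5, 13.9, 17.1 and 17.7 CPM in the GFP-high libraries of KO mice. The WT libraries had 24.2, 29.2, 26.6, 25.0 and 24.8 CPM in GFP-low and 19.1, 17.9, 16.4, 16.6 and 17.7 CPM in GFP-high libraries. The groups were close but did not overlap, with 0.44 ± 0.10 in KO and 0.57 ± 0.10 in WT mice on the log2 scale (edgeR adjusted p = 0.00201 and 0.000524). B4galt6, the other lactosylceramide synthase, was lower in KO mice at -0.64 ± 0.14 and did not pass in WT mice at -0.26 ± 0.13. B4galt4, which acts on sulfated chains, was higher by 0.57 ± 0.14 in KO and 0.44 ± 0.12 in WT mice. B4galt7, which acts on the proteoglycan linker, was higher in KO mice at 0.44 ± 0.16, a call that failed when KO mouse 2 or 4 was left out of the GFP-high or KO mouse 3 or 4 out of the GFP-low libraries, and did not pass in WT mice at 0.20 ± 0.13. The abundant B4galt1 had 0.06 ± 0.15 in KO and 0.37 ± 0.14 in WT mice and passed in neither, and its value was -0.22 in KO and -0.007 in WT mice with library totals alone. In WT mice its edgeR adjusted p was 0.0534, and 0.0184 when the mouse number was fitted as a block. B4galt3 did not pass either, at 0.21 ± 0.09 in KO and 0.06 ± 0.09 in WT mice, and with the mouse number as a block it was called higher in KO mice.

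Of the 5 sialyltransferases tested, 3 were higher and 2 lower in KO mice, and 1 higher and 1 lower in WT mice. Over all genes, 50.5% were called in KO and 43.4% in WT mice. St3gal4, which makes the sialyl cap of Lewis-type structures, stood at 221, 259, 350.2, 253 and 174 CPM in the GFP-low and 34.7, 12.3, 19.8, 29.5 and 10.7 CPM in the GFP-high libraries of KO mice. WT mice had 182, 388, 380.1, 249 and 198 CPM in GFP-low and 17.4, 20.8, 46.0, 18.5 and 13.2 CPM in GFP-high libraries. All GFP-low libraries were above all GFP-high libraries by a wide margin, and the change was 11.9-fold in KO and 12.1-fold in WT mice (log2 3.57 ± 0.31 and 3.59 ± 0.35, edgeR adjusted p = 8.16e-07 and 9.49e-06). St3gal3, which sialylates mainly N-glycan chains, fell by 0.74 ± 0.12 in KO and by 0.81 ± 0.15 in WT mice on the log2 scale. St3gal1, which caps core 1 of mucin-type chains, rose in KO mice by 1.57 ± 0.27 and had 0.93 ± 0.36 in WT mice (edgeR adjusted p = 0.0532, and 0.0245 with the mouse number as a block). St3gal2, known for sialylating gangliosides and core 1, was the 1 mucin-type enzyme called lower, in KO mice at -1.0 ± 0.33, and had -0.64 ± 0.40 in WT mice. That call failed when KO mouse 3 or 4 was left out of the GFP-high or KO mouse 5 or 6 out of the GFP-low libraries. St3gal6, with substrates like those of St3gal4, was higher in KO mice at 0.52 ± 0.17 and did not pass in WT mice at 0.41 ± 0.19, where it was called higher with the mouse number as a block.

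Of the 5 fucosyltransferases, 4 were higher and 1 was lower in GFP-low cells in each genotype, beside 50.5% of all genes called in KO and 43.4% in WT mice. Fut2, the secretor enzyme of gut epithelium that adds the terminal fucose of the H antigen, stood at 3.54, 5.36, 3.72, 8.33 and 4.32 CPM in the GFP-low and 1.20, 0.55, 0.57, 1.05 and 0.55 CPM in the GFP-high libraries of KO mice. Its WT values were 4.09, 1.46, 6.87, 3.46 and 9.84 CPM in GFP-low and 0.76, 1.25, 1.32, 0.57 and 1.88 CPM in GFP-high libraries. The populations overlapped in WT mice, where GFP-low mouse 3 lay below GFP-high mouse 8, and did not overlap in KO mice. The log2 fold change was 2.70 ± 0.32 in KO and 2.15 ± 0.46 in WT mice (edgeR adjusted p = 1.29e-05 and 0.00265). Fut1, which makes the same linkage, lies beside it on mouse chromosome 7 (mm10), at chr7:45617289-45621059 on the forward strand, with Fut2 at chr7:45648591-45666394 on the reverse strand and 27531 bp between them. It rose by 2.07 ± 0.44 in KO and by 1.56 ± 0.43 in WT mice, at a level of 2.95 ± 1.45 and 3.13 ± 1.43 CPM in GFP-low cells (SD, n = 5 each), and its WT call was lost without WT mice 7 and 8. Fut4, which makes the Lewis x structure, rose by 1.10 ± 0.14 in KO and 0.84 ± 0.19 in WT mice.

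Fut8, which adds the core fucose of N-glycans, had the smallest p of the family in WT mice. It stood at 37.7, 47.7, 45.9, 52.4 and 47.2 CPM in the GFP-low and 27.4, 22.6, 30.4, 32.4 and 30.2 CPM in the GFP-high libraries of KO mice. For WT mice the values were 45.9, 35.4, 41.0, 41.9 and 51.0 CPM in GFP-low and 24.7, 32.5, 23.5, 25.7 and 32.6 CPM in GFP-high libraries. The populations did not overlap, with 0.70 ± 0.12 in KO and 0.63 ± 0.13 in WT mice on the log2 scale (edgeR adjusted p = 0.000198 and 0.00205). Fut11 fell by 0.82 ± 0.10 in KO and by 0.41 ± 0.13 in WT mice, and was lower in GFP-low cells of 5 of 5 mice of each genotype.

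Of 3 sulfotransferases tested, 1 was higher and 1 lower in each genotype, beside 50.5% of all genes called in KO and 43.4% in WT mice. Chst4, which puts sulfate on N-acetylglucosamine of mucin-type chains and is known for making L-selectin ligands, had the largest change in KO mice. It stood at 32.6, 71.2, 82.8, 72.3 and 51.4 CPM in the GFP-low and 2.85, 2.77, 4.00, 6.77 and 4.33 CPM in the GFP-high libraries of KO mice. The WT libraries had 66.1, 49.7, 39.1, 57.0 and 112 CPM in GFP-low and 10.7, 11.0, 6.21, 7.22 and 9.85 CPM in GFP-high libraries. The populations did not overlap in either genotype, and the change was 15.0-fold in KO and 7.19-fold in WT mice (log2 3.91 ± 0.29 and 2.85 ± 0.27, edgeR adjusted p = 2.2e-07 and 8.33e-06). Chst11, which sulfates chondroitin, fell by 1.76 ± 0.42 in KO and by 1.60 ± 0.33 in WT mice. Chst15, which makes a doubly sulfated chondroitin, did not pass in either, at 0.18 ± 0.24 in KO and 0.18 ± 0.24 in WT mice, and its sign was negative in both with library totals alone.

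Beside 50.5% of all genes called in KO and 43.4% in WT mice, the N-glycan branching enzymes had 4 of 6 and 3 of 6. All of these calls were higher and 0 lower. Mgat4a had the smallest p in both genotypes. It stood at 166, 119, 128, 102 and 120.3 CPM in the GFP-low and 80.2, 70.4, 71.1, 72.6 and 68.3 CPM in the GFP-high libraries of KO mice. WT mice had 116, 154, 136, 155 and 120.5 CPM in GFP-low and 77.2, 75.4, 93.2, 93.9 and 73.4 CPM in GFP-high libraries. The populations did not overlap, with 0.82 ± 0.11 in KO and 0.72 ± 0.12 in WT mice on the log2 scale (edgeR adjusted p = 4.59e-05 and 0.000353). Mgat3, which adds the bisecting residue, rose by 1.17 ± 0.17 in KO and 1.12 ± 0.18 in WT mice. Mgat2, which starts the second antenna of complex chains, rose by 0.58 ± 0.11 in KO and 0.63 ± 0.11 in WT mice. Mgat1, the gate to hybrid and complex N-glycans, was higher in KO mice at 0.59 ± 0.12 and did not pass in WT mice at 0.27 ± 0.13. Mgat4b, which makes the same branch as Mgat4a, and Mgat5, which makes the tri- and tetra-antennary branch, passed in neither genotype. Their log2 values were 0.21 ± 0.20 and -0.13 ± 0.10 in KO mice and 0.32 ± 0.17 and -0.12 ± 0.12 in WT mice.

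**Figure D2:**
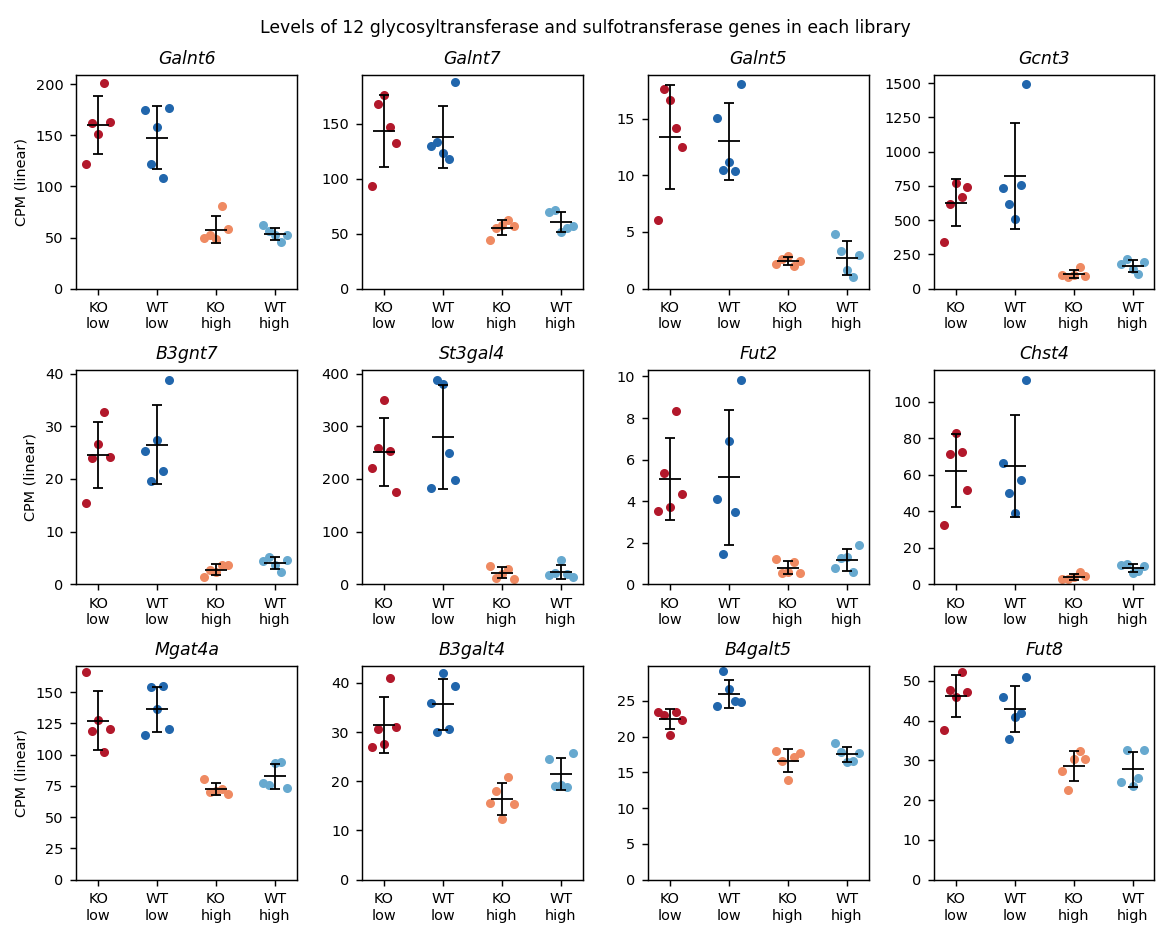
CPM on a linear scale in every library for 12 of the enzymes, with points for libraries and bars for the mean ± SD (n = 5), in the order GFP-low KO, GFP-low WT, GFP-high KO and GFP-high WT. Gcnt3 reaches 1492 CPM in 1 GFP-low library of a WT mouse, and the GFP-high libraries of Chst4, B3gnt7 and St3gal4 lie near the axis in both genotypes.

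Other genes of the pathway were mostly higher in GFP-low cells too, beside 26.2% of all genes higher in KO and 22% in WT mice. Among O-glycan enzymes outside the name rule, 5 of 7 were higher and 0 lower in KO mice with a median of 1.63, and 4 of 7 higher and 1 lower in WT mice with a median of 1.32. St6galnac2 was in both tables but is not among the 7, because the comparison of populations covers only symbols held once by each. The core 1 galactosyltransferase C1galt1 had 1.44 ± 0.16 in KO and 1.32 ± 0.17 in WT mice, its chaperone C1galt1c1 2.10 ± 0.17 and 1.85 ± 0.18, and the galactose sulfotransferase Gal3st2 2.50 ± 0.19 and 2.30 ± 0.15. Of 28 genes for sugar donors and their Golgi transporters, 25 were higher and 0 lower in KO mice with a median of 0.78, and 22 higher and 0 lower in WT mice with a median of 0.72. Papss2, which makes the sulfate donor, stood out with 3.81 ± 0.29 in KO and 4.22 ± 0.21 in WT mice. Gfpt1, the entry enzyme to hexosamines, had 1.88 ± 0.16 in KO and 1.70 ± 0.18 in WT mice. Of 6 mucins, 4 were higher and 1 lower in KO mice, and 5 higher and 1 lower in WT mice. Muc2, the gel-forming mucin of goblet cells, averaged 2202 ± 576 CPM in GFP-low and 215 ± 107 CPM in GFP-high cells of KO mice, and 2236 ± 1062 and 268 ± 102 CPM in those of WT mice (SD, n = 5 each). The membrane mucin Muc4 was the 1 called lower, at -0.34 ± 0.12 in KO and -0.45 ± 0.12 in WT mice.

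**Figure D3:**
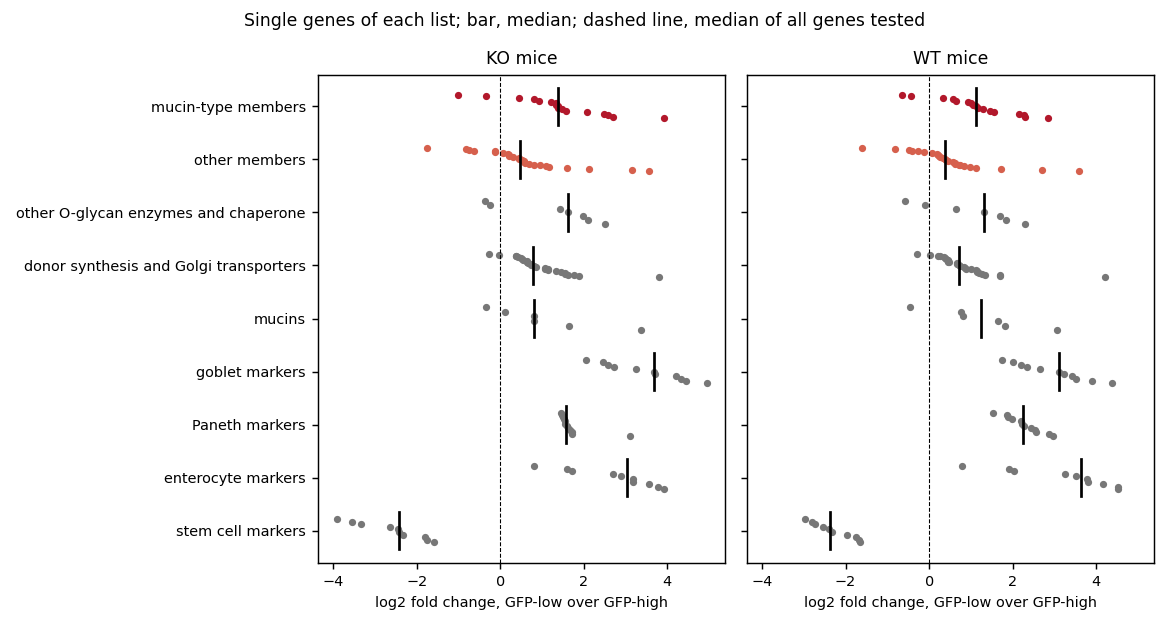
Log2 fold changes of GFP-low over GFP-high cells for the mucin-type and the other enzymes, the other pathway lists and 4 marker lists, in KO and WT mice; each point is a gene, each bar the median of its list and the dashed line the median of all genes tested. The goblet list has medians of 3.67 in KO and 3.10 in WT mice, above the mucin-type enzymes with 1.38 and 1.12, and the stem cell list lies at -2.44 and -2.36.

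Promoters are shown for the 4 enzymes with the largest increases in GFP-low cells, in either genotype, among those with an entry in the RefSeq promoter table (GRCm38.p6), which holds 40 of the 52 genes. Gcnt3 and Fut2 have none there. Each is the 250 bases before the start that RefSeq gives the gene, written 5′ to 3′ on the gene's strand, at chr8:110039335-110039584 (reverse) for Chst4, chr9:35116865-35117114 (reverse) for St3gal4, chr1:86302971-86303220 (forward) for B3gnt7 and chr2:57997905-57998154 (forward) for Galnt5. The GENCODE M21 genes, from which positions above are taken, begin further upstream than these starts, by 406 bases for Chst4, 2404 for St3gal4, 389 for B3gnt7 and 271 for Galnt5, so the windows lie within the genes as GENCODE draws them. Motifs were searched on both strands, and none of them contains another. The GC box was searched as GGGCGG. The letters of the TATA box were TATAAA. A motif of CDX factors, important in the gut, was searched as TTTATNG. That of GATA factors was searched as AGATAA. For HNF4, another factor of gut epithelium, the letters were CAAAGTCCA. Capitals mark every match in the windows shown.
Chst4: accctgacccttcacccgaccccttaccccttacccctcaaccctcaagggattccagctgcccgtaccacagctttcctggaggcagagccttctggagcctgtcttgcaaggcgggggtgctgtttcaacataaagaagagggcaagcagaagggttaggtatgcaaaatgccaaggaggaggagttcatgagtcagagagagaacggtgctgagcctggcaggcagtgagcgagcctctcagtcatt
St3gal4: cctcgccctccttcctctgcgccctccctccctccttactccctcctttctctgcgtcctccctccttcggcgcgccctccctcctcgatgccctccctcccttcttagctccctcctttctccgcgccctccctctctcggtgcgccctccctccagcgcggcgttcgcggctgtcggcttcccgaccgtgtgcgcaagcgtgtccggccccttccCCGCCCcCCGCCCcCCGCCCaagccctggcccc
B3gnt7: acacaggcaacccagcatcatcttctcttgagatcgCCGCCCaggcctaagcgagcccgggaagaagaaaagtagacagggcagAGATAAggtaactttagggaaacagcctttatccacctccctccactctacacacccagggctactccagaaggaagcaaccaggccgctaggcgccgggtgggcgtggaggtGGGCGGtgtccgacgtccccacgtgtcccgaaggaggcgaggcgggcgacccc
Galnt5: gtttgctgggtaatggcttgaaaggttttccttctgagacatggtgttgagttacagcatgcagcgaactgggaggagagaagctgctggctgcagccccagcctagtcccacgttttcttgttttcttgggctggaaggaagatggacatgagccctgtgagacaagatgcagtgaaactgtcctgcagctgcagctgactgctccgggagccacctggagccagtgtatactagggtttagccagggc
The St3gal4 window holds 3 GC boxes, beginning 33, 26 and 19 bases before the RefSeq start, with 72.8% G or C and 25 CpG. The B3gnt7 window holds GC boxes at 214 and 53 bases and a GATA match at 166 bases before the RefSeq start, with 61.6% G or C and 16 CpG. Neither the Chst4 window, with 56.4% G or C and 5 CpG, nor the Galnt5 window, with 54.0% and 3 CpG, holds a match to the 5 motifs. The GC box was found in 67.5% of the 40 windows and in 32.9% of all 27025 windows of the table. The GATA motif was in 10% and 10.3%, HNF4 in 2.5% and 0.4%, CDX in 0.0% and 10.2%, and the TATA box in 0.0% and 13.0%. The median G or C content was 63.0% for the 40 windows and 52.0% for all, and the median number of CpG 16 and 6. The table is 1 window per gene, and the start used in these cells was not measured.

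KO and WT mice were then compared within each population, to ask how loss of the integrin chain in the animal bears on these enzymes. In GFP-low cells 0 of 50 genes passed edgeR's test at an adjusted p of 0.05, against a background of 0% of 11778 genes called higher and 0.00849% called lower, which is 1 gene. At an unadjusted p under 0.05 there were 4 of the 50 and 744 of all genes, and DESeq2 called 0 of the 50. The log2 fold changes had a median of -0.01 for the 50 genes, with 24 positive and 26 negative, and of 0.00 over all genes. Mgat2 had the smallest p. It stood at 22.9, 23.6, 22.9, 19.6 and 21.2 CPM in KO mice and 24.6, 32.1, 28.7, 25.7 and 33.2 CPM in WT mice. The genotypes did not overlap, and the value was -0.39 ± 0.11 (edgeR adjusted p = 0.744). B3galt5, which makes type 1 chains, stood at 1.61, 2.52, 3.09, 2.89 and 1.49 CPM in KO mice and 0.8, 0.98, 1.51, 1.46 and 1.63 CPM in WT mice. The ranges overlapped at these low levels, with 0.86 ± 0.30 (edgeR adjusted p = 0.744). The next by p were Fut11 with -0.32 ± 0.13, Mgat1 with 0.34 ± 0.15, B4galt5 with -0.21 ± 0.10, B3gnt3 with -0.27 ± 0.15, St3gal3 with 0.24 ± 0.16 and B4galt1 with -0.27 ± 0.19, at edgeR adjusted p from 0.759 to 0.863. Mgat2 and B4galt5, with all KO values of B4galt5 below all WT values, were the 2 of the 50 genes (4%) whose genotypes did not overlap, beside 1.12% of all 11778 genes. In GFP-high cells this held for 0 of 45 genes, beside 1.84% of all 11745.

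Among the mucin-type enzymes of GFP-low cells, 12 values were positive and 6 negative with a median of 0.05 and 0 of 18 called. The 10 GalNAc-transferases had values from 0.04 to 0.58, of which the highest was Galnt2 with 0.58 ± 1.05. Galnt2 stood at 4.26, 0, 0, 0 and 8.30 CPM in KO mice and 2.21, 1.46, 2.08, 1.21 and 1.45 CPM in WT mice, so 3 KO libraries were listed at 0 and the other 2 above every WT library. It shares exon bases on the same strand with Gm20388, and the sum of the 2 rows was 47.1 ± 6.94 CPM in KO and 43.3 ± 5.11 CPM in WT mice (SD, n = 5 each), so its own level is uncertain. In GFP-high cells, where Galnt2 had no row, Gm20388 alone averaged 39.8 ± 7.32 CPM in KO and 41.3 ± 2.47 CPM in WT mice. Gcnt3 had -0.39 ± 0.28, Fut2 -0.02 ± 0.40 and Chst4 -0.06 ± 0.28 in GFP-low cells. Each of these values changed sign without WT mice 7 and 8, and also with the replicate number fitted as a block. The genes only in the table for GFP-low cells were all listed at low levels, that of Galnt2 being uncertain, and none passed. St6gal1, which adds sialic acid to N-glycans, averaged 2.11 ± 1.24 CPM in KO and 2.20 ± 1.02 CPM in WT mice. B3gnt5, which starts a class of glycolipids, averaged 3.01 ± 0.922 CPM in KO and 3.34 ± 1.09 CPM in WT mice (SD, n = 5 each). B3gnt9, Chst12 and Mgat4c lay between 1.01 and 2.19 CPM on average in KO mice and between 1.21 and 2.76 CPM in WT mice. Beside these, 11 of 12 Paneth markers had negative values with a median of -0.70 and 12 of 12 enterocyte markers with a median of -0.52, and 9 of 9 tuft markers with a median of -0.34. Goblet markers had 5 positive and 6 negative values with a median of -0.04, and mucins 2 positive and 5 negative with -0.02. Enteroendocrine markers had 3 positive and 8 negative values with a median of -0.06, and epithelial markers 4 positive and 2 negative with 0.04. Of the 10 stem cell markers 8 were negative with a median of -0.24. In that list 5 were at an unadjusted edgeR p under 0.05, as were 7 of the 12 enterocyte and 1 of the 12 Paneth markers. In the tuft, goblet, enteroendocrine, epithelial and mucin lists 0 were under 0.05, and 0 were called in any of these lists.

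In GFP-high cells 0 of 45 genes passed edgeR's test, against a background of 0% of 11745 genes. At an unadjusted p under 0.05 there were 7 of the 45 and 1150 of all genes. DESeq2 gave an adjusted p to 42 of the 45 and called 3 of them, all lower in KO mice, with 50 higher and 95 lower over all genes. The median was -0.11 for the 45 genes, with 13 positive and 32 negative, and 0.01 over all genes. Chst2, a sulfotransferase of N-acetylglucosamine like Chst4, had the smallest p. It stood at 4.46, 2.60, 2.72, 1.95 and 2.58 CPM in KO mice and 3.68, 6.23, 13.7, 10.3 and 9.81 CPM in WT mice. The genotypes overlapped because WT mouse 1 lay below KO mouse 2, and the value was -1.61 ± 0.32 (edgeR adjusted p = 0.163, DESeq2 adjusted p = 0.000311). Chst4 stood at 2.85, 2.77, 4.00, 6.77 and 4.33 CPM in KO mice and 10.7, 11.0, 6.21, 7.22 and 9.85 CPM in WT mice. KO mouse 5 lay above WT mouse 6 and the other KO values were below all WT values, with -1.11 ± 0.25 (edgeR adjusted p = 0.167, DESeq2 adjusted p = 0.00418). Gcnt3, whose values by library are given above, had -0.65 ± 0.20 (edgeR adjusted p = 0.256, DESeq2 adjusted p = 0.0401).

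The next by p in GFP-high cells were Mgat2 with -0.32 ± 0.11, B3gnt3 with -0.41 ± 0.15, B3galt4 with -0.38 ± 0.15, B3gnt2 with -0.89 ± 0.36 and Mgat4a with -0.18 ± 0.09, at edgeR adjusted p from 0.328 to 0.543. Chst14, which sulfates dermatan, averaged 0.986 ± 0.266 CPM in KO and 1.06 ± 0.224 CPM in WT mice (SD, n = 5 each). The 17 mucin-type enzymes had 4 positive and 13 negative values with a median of -0.16. The 9 GalNAc-transferases lay between -0.19 and 0.11 and Fut2 had -0.55 ± 0.39. Some marker lists lay in the same direction and others did not. All 11 goblet markers were negative, with a median of -0.63 and a range of -0.88 to -0.28. So were 10 of 10 enteroendocrine markers with a median of -0.98 and 6 of 7 tuft markers with -0.73. Paneth markers, also secretory, had 5 positive and 7 negative values with a median of -0.09. Mucins had 4 positive and 3 negative values with a median of 0.02, and 0 were called in each list. An unadjusted edgeR p under 0.05 was held by 6 goblet, 7 enteroendocrine, 4 tuft and 0 Paneth markers and by 2 mucins. The goblet markers held 0.298 to 0.546% of counts in GFP-high cells of KO mice and 0.277 to 0.71% in those of WT mice. Their part in the values of Chst4 and Gcnt3 was not tested.

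**Figure D4:**
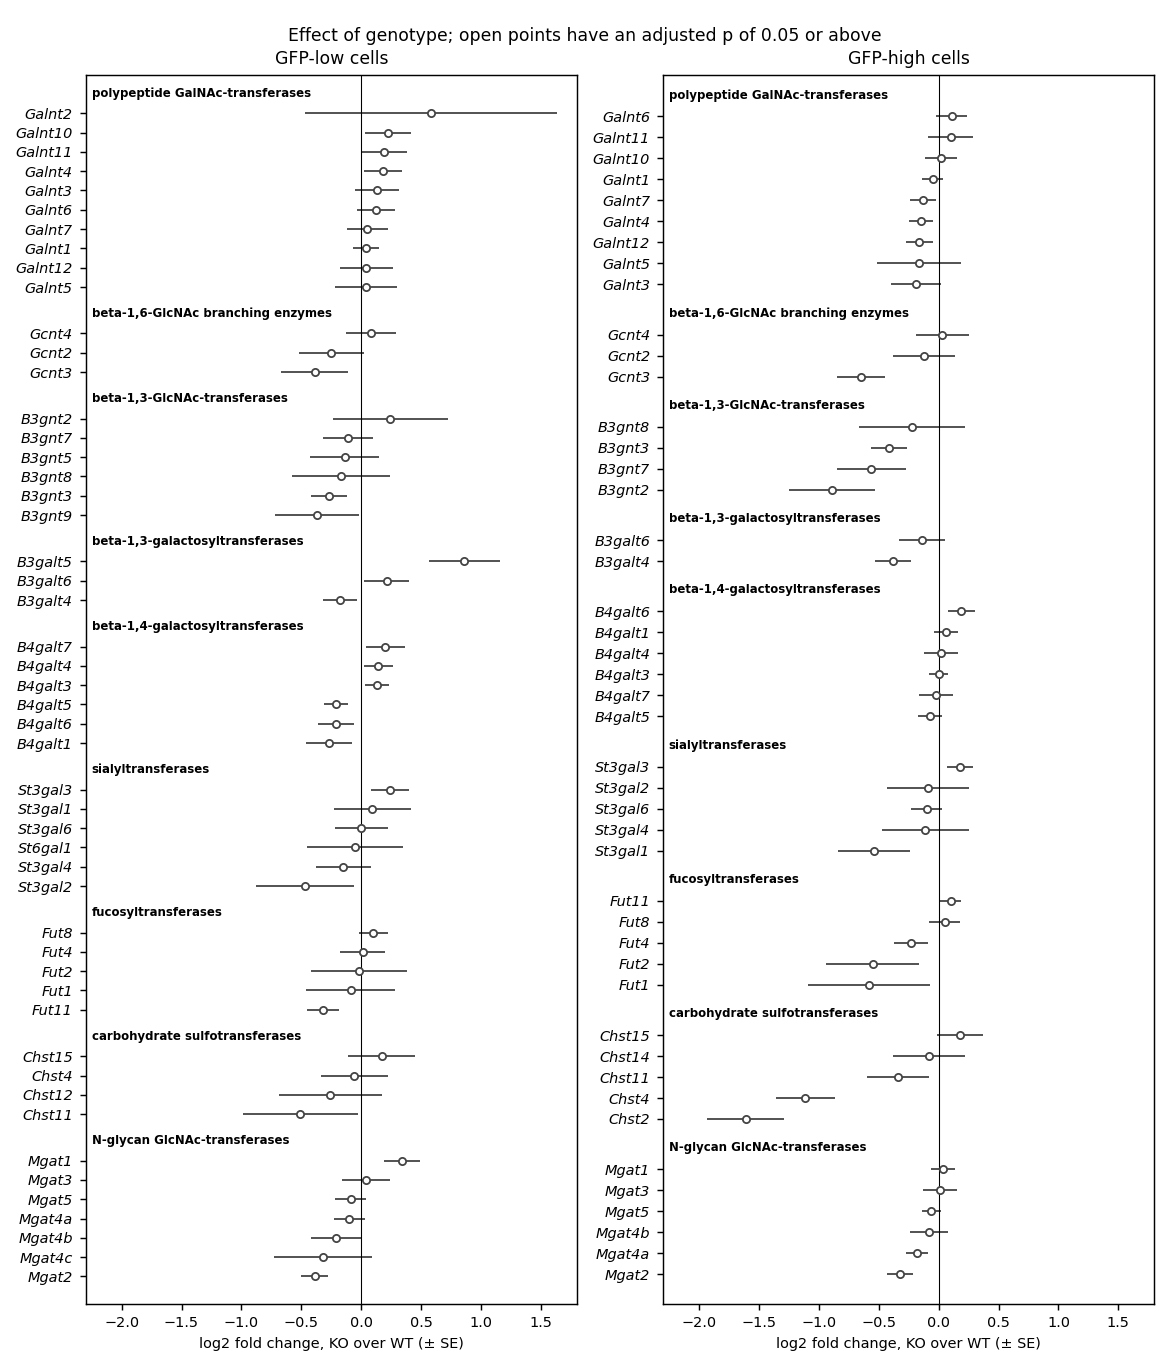
Log2 fold change of KO over WT with bars of 1 SE to each side for each enzyme in GFP-low and GFP-high cells, grouped by family, with a line at 0. No point passed an adjusted p of 0.05 in edgeR; Chst2 and Chst4 lie furthest to the left in GFP-high cells, at -1.61 and -1.11.

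The difference between the KO effect in GFP-low and that in GFP-high cells was tested over all 20 libraries for the 43 genes in both tables. In edgeR 0 of 43 passed, against a background of 0% of 11296 genes. At an unadjusted p under 0.05 there were 3 of the 43 and 353 of all genes, and DESeq2 called 0 of the 43. The 3 were Fut11 with -0.41 ± 0.16, Chst4 with 1.05 ± 0.41 and B4galt6 with -0.39 ± 0.19, each at an edgeR adjusted p of 1. Galnt4 with 0.33 ± 0.19 and B3gnt2 with 1.13 ± 0.64 came next. The median was 0.10 for the 43 genes, with 31 positive, and 0.00 over all genes. For the 17 mucin-type enzymes it was 0.20 with 16 positive, and the 11 goblet markers were all positive with a median of 0.55. This comparison uses the same libraries as the 2 comparisons of KO with WT, so its signs are not separate from theirs.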

How the data were processed

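RNA-seq libraries came from 20 sorted samples in 4 groups of 5, assigned by the genotype and population in the labels. The authors deposited expected counts per gene in 1 table for each population, with no normalization visible in the column totals. Per the submitters' processing notes, TopHat2, Bowtie2, RSEM and build mm10 were used; for their versions, their roles and the strand of counting, the sources used here give nothing. RSEM divides reads that fit several genes, and 21 of the 52 genes share exon bases with another gene.

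Of the deposited values 13.7% in each table were not whole, and all were rounded to whole counts. The tests were edgeR 4.0.16 (quasi-likelihood, R 4.3.3) with TMM factors, filterByExpr at a minimum count of 10 and Benjamini-Hochberg adjustment over all genes tested, with a threshold of 0.05. KO was compared with WT, and GFP-low with GFP-high cells, on 10 libraries each, and the difference of KO effects on all 20. Log2 fold changes carry standard errors (SE). CPM were scaled by TMM over all 20 libraries, and levels per kilobase used exon lengths of GENCODE M21 on mm10, in which all 52 symbols matched. Any pair of libraries in a group had a chi-square per gene of at least 18.9, so none was a repeat of another.

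The labels number the libraries but do not say that a number is 1 mouse. GFP-low and GFP-high libraries of the same genotype and number deviated together, with correlations from 0.169 to 0.625. All 10 GFP-low libraries matched their own number best, so numbers were read as mice and as pairs between populations. The main tests did not use these pairs. Between populations and for the difference, pairs entered only where the mouse number was fitted as a block. If the numbers were not separate mice, p-values measure only the spread between these libraries.

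Alternatives were DESeq2 1.42.0, other size factors, library totals alone, no filter, all libraries in 1 fit, the mouse number as a block, each library left out, and, chosen after seeing the data, Paneth transcripts, WT mice 7 and 8, and KO mouse 2 left out. The code was tested on simulated data. Genes named are, by rule, the 3 of smallest p per family between populations, the 8 of smallest p between genotypes, the 5 of smallest p for the difference, all mucin-type members and the 5 highest per kilobase. B3gnt6 and Gcnt1, in that rule, are not analysed here. Other members were added after their values were seen. The members and lists were chosen with earlier results of these data known.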

Additional observations from a re-analysis of the deposited data

Results flagged for a closer look

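For the 13 enzymes given library by library, 48 groups of 5 were checked for 1 library far from the other 4, by Dixon's criterion with a critical value of 0.71, and 5 groups held one. Chance marks about 1 in 20 groups. KO mouse 5 was high in 3 of them: B3galt4 had 41.07 CPM in its GFP-low library, Galnt6 80.87 CPM in its GFP-high library and Gcnt3 159.42 CPM in its GFP-high library. Gcnt3 had 1491.56 CPM in the GFP-low library of WT mouse 8. St3gal4 had 45.96 CPM in the GFP-high library of WT mouse 6. The calls between populations for these 4 genes held when each of these libraries was left out.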

How the results depend on the processing

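Between populations, the count of higher calls was 24 to 28 in WT mice and 29 to 31 in KO mice when each library was left out, and that of lower calls 3 to 5 and 4 to 5. In WT mice library totals alone gave 16 higher and 8 lower calls, beside 1188 higher and 4895 lower over all genes. Leaving out WT mice 7 and 8 gave 2 lower, beside 1256 lower over all genes. The cause was not tested. With library totals alone, which moved the median of all genes to -0.37 in WT and -0.27 in KO mice, signs turned in WT mice for Galnt1 (-0.034), B4galt1 (-0.007), Mgat1 (-0.074), Mgat4b (-0.032), B4galt7 (-0.157), Chst15 (-0.212), B4galt3 (-0.297) and B3gnt8 (-0.13), and in KO mice for B4galt1 (-0.218), B4galt3 (-0.049), Mgat4b (-0.057) and Chst15 (-0.105). Chst15 was at -0.156 without WT mice 7 and 8, and B4galt1 in KO mice ran from -0.077 to 0.131 when each library was left out, with -0.031 the other negative value, both without a GFP-low library (mice 5 and 6). Between genotypes in GFP-high cells, DESeq2 called 3 lower and the replicate number as a block 4 lower (Chst2, Chst4, Gcnt3 and St3gal4), and every other alternative 0. Over all 11745 genes, DESeq2 called 50 higher and 95 lower, and the block 35 higher and 87 lower. With that block 11 of the 45 members changed sign. Correlations of KO and WT libraries of the same number were -0.105 to -0.076, so those genotypes share only a number, and that block rests on numbers 3 and 6. In GFP-low cells, and for the difference, every alternative called 0. Between genotypes in GFP-low cells 16 of the 50 members changed sign with the block, and their median moved from -0.01 to 0.27. Without WT mice 7 and 8, 10 of the 50 changed sign and the median was 0.12. Between populations the block gave 31 higher and 5 lower in KO and 28 higher and 3 lower in WT mice. Over all genes it called 3310 higher and 3154 lower in KO and 2925 higher and 2920 lower in WT mice. B3galt6 was lost in WT mice, and B4galt1, St3gal1 and St3gal6 were gained there and B4galt3 in KO mice. Over all members between populations, 1469 of 1548 alternative values kept direction and side of the threshold, 40 lost the call, 24 gained it and 15 changed sign. Between genotypes, where no member was called, 7 of 1701 gained a call and 155 changed sign. Genes under a mean of 16.8 counts are not analysed here.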
